A study of Pilatotrama ljubarskyi with 14 samples.

Results

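Trametes ljubarskyi strain BRFM1659, a white-rot fungus, was compared on pine wood and on wheat straw through the 843 of 878 genes in the deposited table that had a log2 level of at least 4 on pine or on wheat straw. The fungus was cultured with shaking at 30 °C for 3 days, and polyA RNA was sequenced from 2 pine libraries and 3 wheat straw libraries, out of 14 libraries on 5 carbon sources. Both media held maltose at 2.5 g/l and 15 g/l of ground, sifted plant fragments below 2 mm, so the labels give the plant material as the difference between them. The other 9 libraries came from maltose alone at 20 g/l, from Avicel (microcrystalline cellulose) at 15 g/l with maltose at 2.5 g/l, and from milled aspen at 15 g/l, with 3 libraries each; the maltose added with aspen could not be read from the labels. The labels do not state if replicate libraries came from separate flasks, so the p-values measure only the spread between libraries, which may be technical.

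White-rot fungi are basidiomycetes that degrade lignin as well as cellulose and hemicellulose, with secreted glycoside hydrolases, oxidative polysaccharide-cleaving enzymes, peroxidases and laccases. Their genes for polysaccharide-degrading enzymes are in general repressed by readily used sugars and induced by products of the polymers. Softwoods such as pine carry a guaiacyl-rich lignin, galactoglucomannan as a main hemicellulose, and resin, whereas straw, a grass tissue, is rich in arabinoxylan with ferulic and coumaric acid esters. The deposited table carries gene numbers without names or functions, so the genes below cannot be assigned to enzyme families, and only the 2 largest rises and the 2 largest falls are given by number.

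Levels are the authors' means per substrate of log2 normalized reads, and a difference is the pine mean minus the straw mean on that scale. Reads of single libraries were recovered from these means by arithmetic (see the account of processing), for 728 of the 843 genes on both substrates. For the other 115 genes, mostly of high level, the straw reads were not recovered, nor, for 1 of them, those on pine, and their errors come from the spread on the remaining substrates. Library A, B or C is a name given by depth, not a replicate number of the labels. In the 728 genes the reads summed to 874914 and 635830 in pine libraries A and B and to 1011070, 924056 and 704808 in straw libraries A, B and C. The total depth of the libraries is unknown.

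Most genes had similar levels on the 2 materials. The difference was within 1 on the log2 scale, that is less than 2-fold, for 687 of 843 genes (81.5%). The middle 50% of the genes lay between -0.45 and 0.44, and the extremes were -3.02 and 4.26. The median difference was 0.04, with 443 genes above 0 and 400 below. Among the 728 genes with recovered reads, 10 (1.37%) differed by at least 1 between the 2 pine libraries, and 4 to 16 (0.549% to 2.20%) did so between pairs of straw libraries. Between a pine and a straw library, 128 to 150 genes (17.6% to 20.6%) did.

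With limma, at an adjusted p under 0.05 and a difference of at least 1, 63 genes were higher and 84 were lower on pine. These are 7.47% and 9.96% of the 843 genes, beside 7.40% and 9.68% of all 878 genes tested, from which the 843 hardly differ. The median difference was 1.36 among the higher genes and -1.48 among the lower ones. At least 4-fold differences were found for 8 higher and 19 lower genes, and at least 8-fold differences for 3 and 1. A further 4 genes above 1 and 5 below -1 did not pass the test. The 728 genes with reads recovered on both substrates held 60 of the higher and 61 of the lower genes. The 115 others, whose spread on straw was not measured, held 3 and 23. They were mostly set apart by straw values too high to search, a choice that in itself favours lower genes. After the median difference of 0.04 was removed from every gene, 60 genes were higher and 87 lower, where 7.06% and 10% of all genes tested passed. When instead each library was shifted to a common median over the genes recovered in all 14, which lowers each pine minus straw difference by 0.12, 50 were higher and 102 lower.

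**Figure D1:**
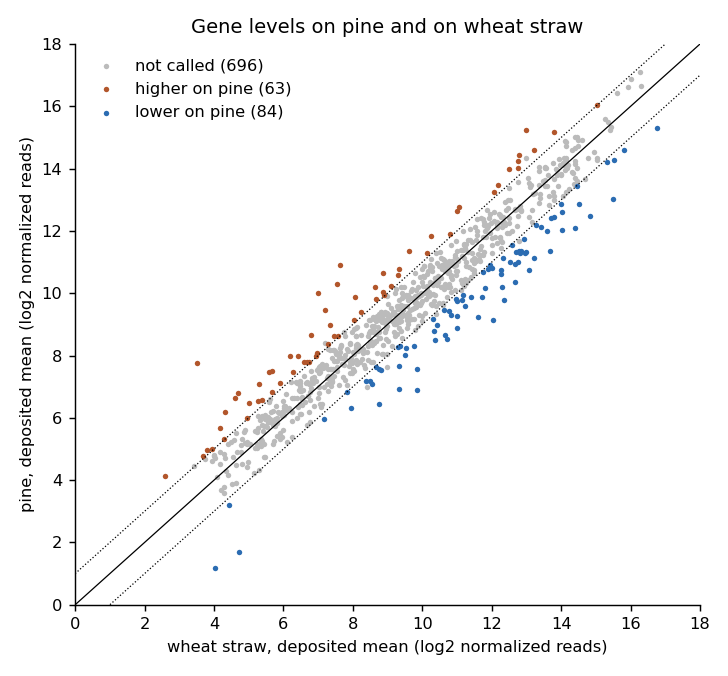
Each point is a gene, with its deposited mean on wheat straw on the x axis and on pine on the y axis (both log2 normalized reads); the solid line marks equal levels and the dotted lines a difference of 1. The 63 genes called higher and the 84 called lower on pine lie outside the dotted lines, and most of the 696 other genes lie between them.

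In the recovered libraries, both pine libraries lay above all 3 straw libraries for 292 of 728 genes and below all 3 for 223. Over the 763 genes of the table with reads recovered on both substrates, these shares were 38.7% and 30%. Groups that do not overlap were thus common. Genes with straw values too high to search are not among the 763, and leaving them out removes lower genes more readily. All 60 higher and all 61 lower genes with recovered reads on both substrates had groups that did not overlap, which the call, made on the same libraries, all but fixes.

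The largest rise was that of gene 962148. It had 193 and 147 reads in the pine libraries and 12, 10 and 8 in the straw libraries. Both pine libraries lay far above every straw library, and the straw libraries were close to each other. The level was 7.75 on pine and 3.50 on straw, a difference of 4.26 ± 0.44 (SE; limma adjusted p = 2.15e-05). Aspen stood near pine for this gene, with 162, 110 and 97 reads, while cellulose had 4, 6 and 7 reads and maltose 5, 1 and 6. The gene was thus read mainly on the 2 woods. Its pine minus aspen difference was 1.01 and its straw minus aspen difference -3.24, given without a test since the pine and straw values chose the gene.

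Gene 962413 had the next largest rise, at a higher level. It had 1664 and 1390 reads on pine against 223, 189 and 162 on straw, and the groups did not overlap. The level went from 7.64 on straw to 10.92 on pine, a difference of 3.28 ± 0.26 (SE; limma adjusted p = 3.38e-06). Cellulose, at 7.66, was at the level of straw, and aspen, at 10.07, was 0.85 below pine. Maltose lay between these pairs at 9.18, with 891, 369 and 579 reads. Unlike gene 962148, this gene was therefore also read in numbers on the soluble sugar.

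The fall of gene 1111559 was large at a moderate level. It had 116 and 75 reads on pine against 1038, 819 and 794 on straw, with no overlap. The level was 6.91 on pine and 9.84 on straw, and the difference was -2.93 ± 0.35 (SE; limma adjusted p = 4.63e-05). Pine had the lowest level of the 5 substrates: aspen was at 8.35, maltose at 9.62 and cellulose at 10.77. The differences of pine from these were -1.45, -2.72 and -3.86, given without a test since the pine values chose the gene.

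Gene 964651 had the largest fitted fall, but rests on few reads. It had 3 and 1 reads on pine and 54, 5 and 48 on straw, so straw library B lay close to pine and far from the other straw libraries. The difference was -3.02 ± 1.04 (SE; limma adjusted p = 0.0361). It did not pass without pine library A (-3.38, limma adjusted p = 0.0995), pine library B (-2.67, adjusted p = 0.189), straw library A (-2.56, adjusted p = 0.117) or straw library C (-2.39, adjusted p = 0.125). Over all alternatives its adjusted p ran from 0.00568 to 0.189, and the 1 added inside the logarithm makes differences of such genes smaller. Another fallen gene had 1 read in each pine library and 20, 17 and 9 on straw. Corrected for depth, pine had 0.0792 times the straw reads, with an exact 95% interval from 0.00931 to 0.303 for counting error alone, and the ranks among the falls cannot be settled at this depth.

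**Figure D2:**
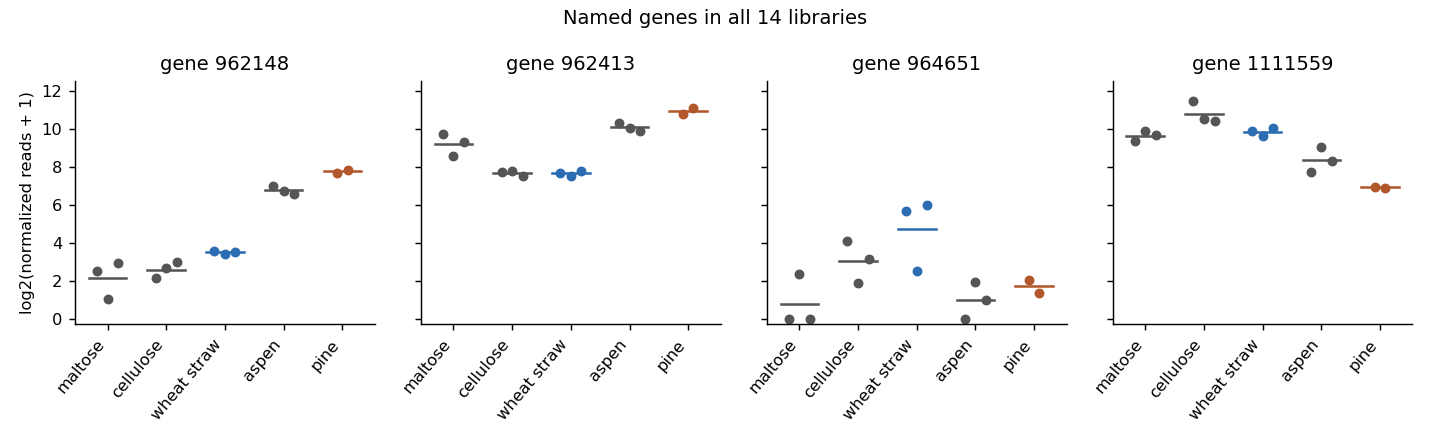
Points are single libraries and bars the deposited substrate means, in log2(normalized reads + 1), for the 2 genes with the largest rises and the 2 with the largest falls on pine; pine is brown and wheat straw blue. Genes 962148 and 962413 were high on both woods, gene 1111559 was lowest on pine, and a straw library of gene 964651 with 5 reads lies near the pine libraries.

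Genes at the edge of the level rule had few reads. The 3 genes just inside had their higher mean at 4.02, 4.10 and 4.14, and the 3 just outside at 3.99, 3.84 and 3.83. The gene at 4.02 is the one just given with 1 read in each pine library.

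Rises and falls were found at different levels. By the mean over the 5 substrates, 28 of the 63 higher genes and 11 of the 84 lower genes lay below 8. At levels of 10 and above the order was turned, with 17 higher and 54 lower genes. Below level 6, 11 of 92 genes were higher and 4 lower (4.35%). From 10 to 12, 8 of 215 were higher (3.72%) and 36 lower (16.7%), and at 12 and above 9 of 134 were higher and 18 lower. The median difference fell from 0.28 below level 6 and 0.23 from 6 to 8 to -0.12 from 10 to 12, and was -0.01 above. With the median difference removed, the counts from 10 to 12 were 8 and 37. At 12 and above, the straw reads of only 35 of the 134 genes were recovered, so the errors there rest largely on the spread on pine and the other substrates. Smaller numbers of reads also gave larger errors, with a median SE of 0.32 below level 6 and 0.16 from 10 to 12.

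**Figure D3:**
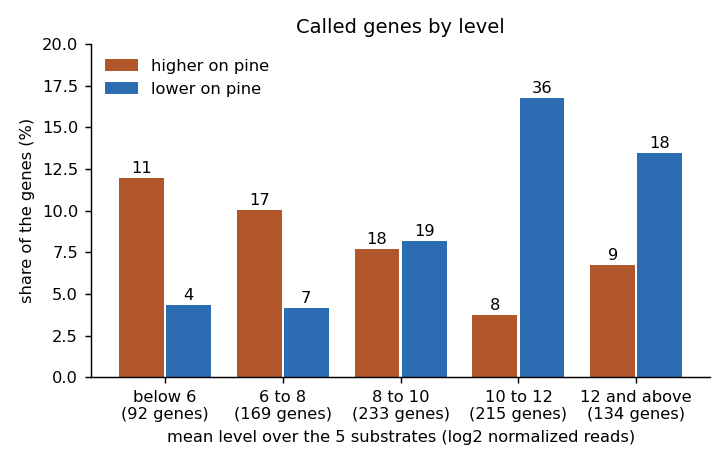
Bars give the share (%) of genes called higher (brown) or lower (blue) on pine than on wheat straw in 5 classes of mean level over the 5 substrates (log2 normalized reads), with the number of genes above each bar. Higher genes outnumber lower ones, 11 to 4 and 17 to 7, in the 2 lowest classes, and lower genes outnumber higher ones, 36 to 8 and 18 to 9, in the 2 highest.

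Among the most abundant genes the balance depended on the substrate used to rank them, and ranking by either column favours genes that are high there. Of the 10 genes with the highest means on straw, 4 were lower on pine and 0 higher, with 6 not called, and their median difference was 0.13. The 100 highest on straw held 3 higher and 19 lower genes, with a median difference of -0.15, whereas the 100 highest on pine held 10 higher and 7 lower, with a median of 0.13. The most abundant of all on straw had a level of 16.76 there and 15.30 on pine, where it was number 10 in order of level. The difference was -1.45 ± 0.21 (SE; limma adjusted p = 0.00284). No reads of this gene were recovered on straw or pine, and cellulose and aspen were too high to search. Its error therefore rests on the maltose libraries, at a level of 7.56, and on the spread expected at its mean level. The gene in ninth place on straw went from 15.48 to 13.02, to place 94 on pine (difference -2.46 ± 0.22; limma adjusted p = 0.000197). Its straw reads were not recovered either. All 4 lower genes among the 10 highest on straw had higher means on cellulose than on straw, from 15.63 to 18.19. On maltose, 3 of them were at 5.70 to 7.56 and the other at 12.95. Of the 10 most abundant genes on pine, 7 were also among the 10 on straw, 1 was called higher and 1 lower. The first of them had 127145 and 96966 reads in the pine libraries and a level of 17.11 against 16.28 on straw. That difference of 0.83 ± 0.21 (limma adjusted p = 0.0342) lies under the required size of 1. Its levels on the other substrates were too high to search, so this error rests on the 2 pine libraries and on the spread expected at its level. The 10 highest genes made up 25.01% of the summed normalized level of the table on pine and 19.7% on straw.

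The 84 lower genes had a pattern of levels over the substrates unlike that of the whole table. Their median level was highest on cellulose (11.98) and straw (11.78), less on aspen (10.98), less again on pine (9.91), and lowest on maltose (7.59). Over all 878 genes the 5 medians lay between 8.87 and 9.36. Of the 84, 48 had their highest mean on cellulose and 24 on straw, and 53 had their lowest on maltose and 17 on pine. In the whole table, cellulose was highest for 20.2% of genes and straw for 14.2%, and maltose was lowest for 38.3% and pine for 10.9%. A high place for straw and a low place for pine follow in part from the choice of these genes. Where cellulose was highest, it was above the next substrate by a median of 1.18, and that next substrate was straw for 31 genes and aspen for 17.

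The 63 higher genes had another order. Their median level was 9.03 on maltose, 8.98 on pine, 7.97 on aspen, 7.66 on cellulose and 7.34 on straw. Pine held the highest mean for 34 of them (54.0%) and maltose for 19 (30.2%), beside 23.9% and 27.6% of the whole table, so the share of maltose was near that of all genes. Of the 34, 21 had aspen next and 9 had maltose next, and the margin over the next substrate had a median of 0.44, with 6 genes at 1 or more. For the 19 genes highest on maltose, pine was the next substrate in 12. Straw was lowest for 24 and cellulose for 20. These orders use the columns that chose the genes, so a high place for pine and a low place for straw follow in part from the choice, and no test is attached to them.

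**Figure D4:**
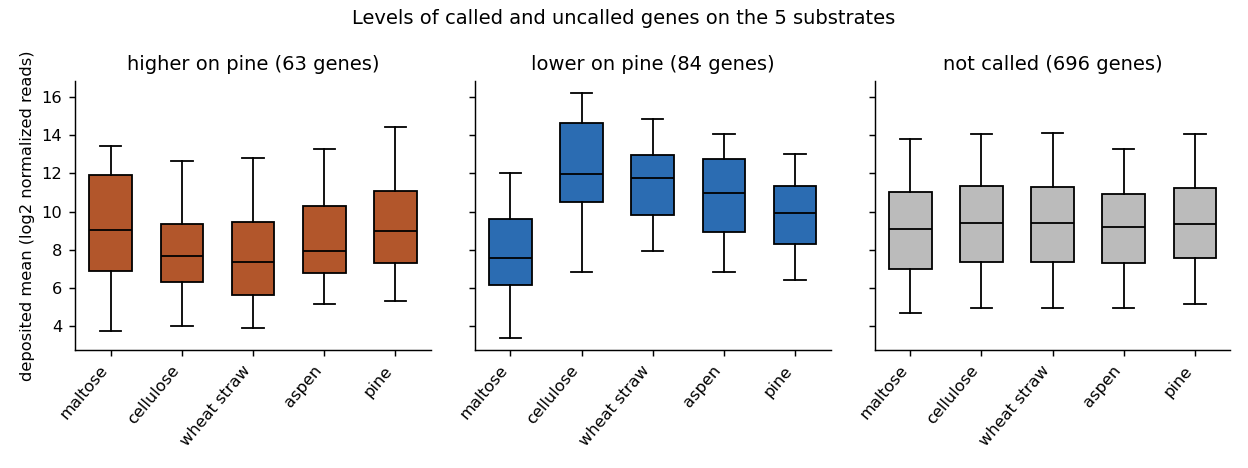
Boxes show the middle 50% of deposited means (log2 normalized reads) with the median as a line and whiskers from the 5th to the 95th percentile, for the genes called higher on pine, called lower on pine, and not called. Genes lower on pine had medians from 7.59 on maltose to 11.98 on cellulose, and those higher on pine had medians from 7.34 on straw to 9.03 on maltose.

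Comparisons among the other 3 substrates share no library with pine and straw, and give differences that the choice of genes did not use. The spread of these libraries did enter the shared error of each call. A gene of small spread passes more easily in every comparison, so the shares below are not fully independent of the choice. Aspen was set against cellulose in the same fit. Of the 84 genes lower on pine than on straw, 55 (65.5%) were lower on aspen than on cellulose and 4 (4.76%) higher, where 24.1% and 10% of all genes tested passed. Their median aspen minus cellulose difference was -1.33, beside -0.21 for all 878 genes. Of the 63 genes higher on pine, 24 (38.1%) were higher on aspen than on cellulose and 7 (11.1%) lower, and their median difference was 0.78. Gene 962148 was among these 24, with an aspen minus cellulose difference of 4.16 ± 0.40 (SE; limma adjusted p = 1.21e-06). Gene 1111559 was among the 55, at -2.42 ± 0.31 (SE; limma adjusted p = 2.16e-05). Without pine library B, 14 of 44 higher genes were higher on aspen, and without straw library C, 36 of 58 lower genes were lower on aspen. In these and the other alternatives run the shares stayed between 31.4% and 42.9% for the higher genes. For the lower genes they stayed between 60.8% and 65.1%. No aspen or cellulose library was left out, so these ranges reflect mainly which genes were called on pine against straw. A difference in maltose between the aspen and the cellulose media cannot be told apart from the solid substrate in this comparison.

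Cellulose was likewise set against maltose, a comparison added after the values were seen. Of the 84 lower genes, 56 (66.7%) were higher on cellulose than on maltose and 5 lower, where 25.9% and 16.5% of all genes tested passed. Their median cellulose minus maltose difference was 3.54, with the middle 50% between 0.66 and 7.35, beside a median of 0.09 for all 878 genes. The genes higher on pine went the other way, with 28 of 63 (44.4%) lower on cellulose than on maltose and 6 higher, and a median of -0.64. Both comparisons use the same cellulose libraries, with opposite sign, so their shares are not separate results. Of the 84 lower genes, 46 were both lower on aspen than on cellulose and higher on cellulose than on maltose, beside 103 of all 843. Of the 63 higher genes, 8 had the opposite pattern in both, beside 21 of the 843. Leaving out straw library A gave 35 of 59 lower genes that were higher on cellulose, and leaving out straw library C gave 35 of 58. In this comparison the solid cellulose and the smaller amount of maltose, 2.5 against 20 g/l, cannot be told apart.

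The level of the genes moved with these shares, since lower genes were more abundant, and the counts were therefore also taken within levels. At levels of 10 and above, 42 of 54 lower genes (77.8%) were lower on aspen than on cellulose, against 78 of 278 uncalled genes (28.1%). In the same class 43 of the 54 (79.6%) were higher on cellulose than on maltose, against 85 of the 278 (30.6%). From 8 to 10, 10 of 19 lower genes were lower on aspen and 10 of 19 higher on cellulose, against 37 and 33 of 196 uncalled genes. Below 8 there were only 11 lower genes, of which 3 were lower and 3 higher on aspen. The higher genes below 8 included 12 of 28 that were higher on aspen (42.9%), against 23 of 222 uncalled genes (10.4%).

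Over all 843 genes, the pine minus straw difference had a Pearson r of 0.38 (Spearman rho 0.39) with the aspen minus cellulose difference. With the cellulose minus maltose difference r was -0.52 (rho -0.40). With the aspen minus maltose difference, likewise added after the values were seen, r was -0.31 (rho -0.18), so the sign of the relation with aspen depended on the substrate that aspen was set against. These describe points that are genes, not independent replicates, and all columns share the authors' scaling.

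**Figure D5:**
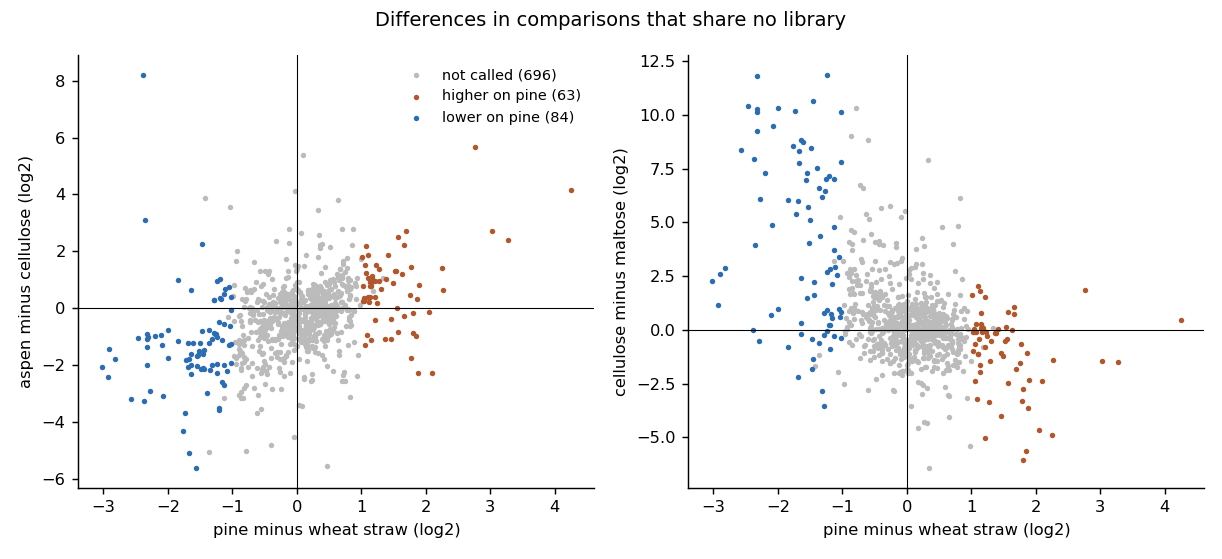
Each point is a gene, with its pine minus wheat straw difference on the x axis and its difference between other substrates on the y axis (log2), aspen minus cellulose on the left and cellulose minus maltose on the right; colours mark the calls of pine against straw. Most genes lower on pine lie below 0 on the left (69 of 84) and many lie high on the right, while 47 of the 63 genes higher on pine lie above 0 on the left.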

How the data were processed

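The deposited file, per the file headers, holds log2 normalized read counts for 878 genes in 5 columns, 1 per substrate. The tools listed, per the submitters' processing notes, are TopHat2, HTSeq and DESeq 1.5, with settings, scaling and gene choice not given in the sources used here. Groups follow the labels.

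Each value was taken to be a mean of log2(count × factor + 1) over the libraries of a substrate. Factors were found from the lowest values, and whole counts were then searched at relative tolerances of 5e-14, or 1.8e-13 from level 10, up to level 13 (all levels on pine), allowing narrower deviations from the mean at higher levels. A value with exactly 1 solution was used, which gave 877 of 878 on pine and 763 on wheat straw. Over all 5 columns, 3953 of 4390 values (90.0%) had exactly 1 solution. Most others were too high to search or had several solutions, and 5 maltose and 2 cellulose values had none within the search. Of values shifted off any solution, 0 of 120 were solved on each substrate up to level 11, and from 11 to 13, 0 of 80 on pine and 9 of 80 on wheat straw. Wrong counts are therefore possible on straw at high levels. Maltose, cellulose and aspen, with 3 libraries each as on straw, were not checked with shifted values. They had 124, 129 and 131 recovered values at level 11 and above, where wrong counts are likewise possible. Relative depth, the inverse of the factor, ran from 0.646 (pine library B) to 1.10 (straw library A) among the pine and straw libraries and reached 1.30 (aspen library A) over all 14.

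Differences are those of the deposited means; recovered libraries give only the spread. limma 3.58.1 in R 4.3.3 was fitted with 1 mean per substrate over 14 libraries, with empirical Bayes moderation and a mean-variance trend, two-sided, with Benjamini-Hochberg adjustment over all 878 genes; the calculation was tested on simulated data. Calls need an adjusted p under 0.05 and a difference of at least 1. Gene 964651 and the other named genes are the 2 greatest rises and the 2 greatest falls among called genes. Genes, lists and tests were chosen with earlier results of these data known. The gene-list counts that were planned for named genes were not made, since no names are paired with the numbers.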

Additional observations from a re-analysis of the deposited data

How the results depend on the processing

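No paired analysis was possible because the deposited columns carry no replicate numbers and the recovered libraries cannot be matched to those of the labels. An alternative value was held to be the same if a count stayed within 1.5 times or a named gene on the same side of the threshold. The median difference was held to be the same if it moved by less than the typical spread between libraries (0.23). It ran from 0.03 to 0.09. A reversal could be recorded only for a named gene or the median difference. A count could only stay or move, so a change in which direction held more genes was not recorded. Of 183 values under alternatives, 159 stayed the same by these rules, 19 counts moved by more and 5 lost the call, while 0 of those that could reverse did so. The 5 all concern gene 964651, which besides the libraries named above lost its call under quantile normalization (adjusted p = 0.0693); at the stricter level of 6 it was not tested. The other 3 named genes kept their calls in all 17 alternatives. With adjusted p alone, pine had 150 higher and 173 lower genes (132 and 178 with the median difference removed), and 187 were higher and 358 lower on aspen than on cellulose. The 646 genes with reads in all libraries gave 49 higher and 40 lower, or 39 and 55 with the median removed; after quantile normalization of these, 36 and 46, or 32 and 49. The excess of lower genes is thus carried in part by genes left out there. Of the 115 genes not recovered on both substrates, 3 were higher and 23 lower. Straw values were mainly left out for being too high to search (104 of 878 on straw), while pine was searched at all levels. Leaving out high straw values removes lower genes more readily, so this split is in part fixed by the choice. It cannot show by itself that abundant genes tend to be lower on pine. With only genes recovered on both, 37 of 61 lower genes were higher on cellulose than on maltose. Leaving out 1 pine or straw library at a time gave 44 to 59 higher and 58 to 77 lower genes, and 38 (without pine library B) to 51 and 65 to 81 with the median removed. The counts shared with other comparisons ran from 14 to 24 (higher on pine and on aspen), 36 to 54 (lower on both), 22 to 28 (higher on pine, lower on cellulose) and 35 to 59 (lower on pine, higher on cellulose), also without maltose library B. A straw library left out also removes the genes without recovered straw reads. The scaling to recovered genes, the counts shared with other comparisons and the limit of recovered reads to level 11 were chosen after seeing the data. Depth limits the genes of few reads, and 2 pine libraries limit the spread that can be estimated.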
